A study of Rattus norvegicus with 27 samples.

Results

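The difference between the CA1 and CA3 responses to ischemia was measured in polysome RNA, as the change after ischemia in CA1 minus the change after ischemia in CA3. It was computed for all 18511 probe sets that carry 1 gene symbol, of 36685 on the array, from the 13 polysome arrays of a series of 27. Of these probe sets, 9 passed the test of that difference (0.0486%), 5 with a higher response in CA1 (0.027%) and 4 with a lower one (0.0216%). These calls rest on taking pool number as a block over the regions: without it 0 passed, and with it from 2 to 25 passed when 1 array was left out. Stc2, Rgs2 and Gadd45g, which encode a secreted stress-induced glycoprotein, a brake on G protein signalling and a growth arrest factor, rose more in CA1 than in CA3 by 2.4-fold, 2.1-fold and 2.28-fold. Polm, a DNA repair polymerase, rose in CA3 and did not pass the test in CA1. Its NIC CA3 arrays were the lowest of the 4 polysome groups. In total RNA its change in CA3 was -0.18 ± 0.12 log2 (SE) and did not pass.

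CA1 and CA3 are neighbouring fields of the hippocampus. Delayed death of pyramidal neurons after brief global ischemia is known from CA1, and CA3 is known as the more resistant field. Ischemia and reperfusion stop most protein synthesis for hours, in part through phosphorylation of the initiation factor eIF2α, and neurons that survive resume translation of a new set of stress-response transcripts. A transcript in a polysome pellet is bound to ribosomes or to other heavy particles, so its level there depends both on how much of the RNA exists and on what share of it is loaded.

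All rats were male Long Evans. The NIC groups were sham operated, with 0 min of ischemia, and the 8R groups had 10 min of complete normothermic global brain ischemia, induced by occluding both carotid arteries and lowering blood pressure by withdrawing blood, followed by 8 h of reperfusion. Each replicate was a pool of CA1 or CA3 from 5 rats. Its supernatant without mitochondria was split, one share for total RNA and the rest spun through a sucrose pad, whose pellet is the polysome fraction. Polysome RNA was hybridised to Affymetrix Rat Gene 2.0 arrays: 3 pools of NIC CA1 (pools 1, 2 and 3), 3 of NIC CA3 (pools 1, 2 and 3), 3 of 8R CA1 (pools 1, 3 and 4) and 4 of 8R CA3 (pools 1, 2, 3 and 4). Total RNA of the same design was on 14 other arrays. The dissected fields hold neurons, glia and vessels, and a pellet from a single pad is not resolved by ribosome number. In such bulk samples, fewer cells of a type and less RNA per cell cannot be told apart.

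Intensities, the deposited linear PLIER values of each probe set, differed in overall level between the regions. Array medians over all probe sets were from 32.2 to 38.1 on the CA1 polysome arrays and from 25.6 to 31.8 on the CA3 polysome arrays, and CA1 exceeded CA3 by a median of 0.21 on the log2 scale in NIC and 0.15 in 8R. Of the 18511 probe sets, 36.5% were called between CA1 and CA3 in NIC (35.6% higher in CA1 and 0.929% lower) and 24.3% in 8R (23.2% and 1.14%). This split changed with scaling: 97.5% of the NIC calls were higher in CA1 as deposited, 61.2% after quantile normalization and 47.6% after centring each array, and for 8R 95.3%, 54.7% and 55.9%. Both alternatives set the arrays to a common level, and the cause of the offset between regions was not tested. The median over all probe sets of the regional difference in response was -0.048, and single values below are read beside it. The 8R arrays of pool 4 deviated together from their groups in CA1 and CA3 (correlation 0.737), and calls and list medians that changed without that pool are given with and without it. Markers of CA1 pyramidal cells followed the labels. The summed intensity of 7 such markers was from 1930 to 2340 in NIC CA1 and from 685 to 753 in NIC CA3. The summed intensity of 8 CA3 markers was from 1450 to 1560 in NIC CA3 and from 1220 to 1280 in NIC CA1, although 3 of these 8 were called lower in NIC CA1 and 2 higher. A longer list of 22 CA3 marker probe sets did not separate the regions in NIC, with 7 called higher in CA1 and 6 lower. No marker on the 9 short lists of cell types had a mean intensity under 1.

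The upstream sequences are given for the 3 genes with a larger response in CA1 whose call was lost in at most 2 alternatives, and for Bag3, a heat shock gene, as one that holds matches. Each is the 250 bases before the annotated start (RefSeq, GRCr8), 5′ to 3′ on the strand of the gene, and capitals mark any match to the core of the heat shock element (GAANNTTC), the cyclic AMP response element (TGACGTCA) or the AP-1 site (TGANTCA) on either strand. The windows are chr10:16755258-16755507 (+) for Stc2, chr13:58352667-58352916 (-) for Rgs2, chr17:13530352-13530601 (-) for Gadd45g and chr1:192533210-192533459 (+) for Bag3.
Stc2: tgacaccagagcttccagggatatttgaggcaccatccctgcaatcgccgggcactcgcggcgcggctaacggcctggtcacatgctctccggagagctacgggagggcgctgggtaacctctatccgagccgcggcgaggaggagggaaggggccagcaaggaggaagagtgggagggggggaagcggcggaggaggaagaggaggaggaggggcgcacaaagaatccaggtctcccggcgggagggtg
Rgs2: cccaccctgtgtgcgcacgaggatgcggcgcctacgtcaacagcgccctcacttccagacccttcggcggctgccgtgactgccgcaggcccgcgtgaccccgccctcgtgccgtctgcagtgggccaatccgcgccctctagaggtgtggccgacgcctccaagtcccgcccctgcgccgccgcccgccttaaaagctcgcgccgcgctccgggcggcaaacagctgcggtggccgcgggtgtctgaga
Gadd45g: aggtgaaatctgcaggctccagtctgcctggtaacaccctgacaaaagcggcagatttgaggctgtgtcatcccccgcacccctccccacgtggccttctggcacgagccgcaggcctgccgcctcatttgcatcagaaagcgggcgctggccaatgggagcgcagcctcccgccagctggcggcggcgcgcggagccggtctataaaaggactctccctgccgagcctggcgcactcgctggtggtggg
Bag3: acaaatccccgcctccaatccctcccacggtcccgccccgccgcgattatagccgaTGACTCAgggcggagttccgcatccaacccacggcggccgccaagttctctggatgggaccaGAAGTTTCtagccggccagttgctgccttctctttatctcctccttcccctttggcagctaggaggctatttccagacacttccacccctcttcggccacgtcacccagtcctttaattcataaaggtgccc
Stc2, Rgs2 and Gadd45g held 0 matches to these letters in this window, and so did Cavin1 and Polm. No other elements were searched for, so stress elements with other letters may be present. The Bag3 window held 1 heat shock element core and 1 AP-1 site, whose first bases lay 132 and 194 bases before the start. Vgll3 has a pair of annotated starts, and the window of one held 1 AP-1 site. That window (chr11:17089994-17090243) lies inside the span of the gene given below. The Cavin1 window (chr10:86396384-86396633) also lies inside the span of its gene. Over all 33469 promoter windows of this length, 7.23% held the heat shock element core, 1.59% the cyclic AMP response element and 6.34% the AP-1 site.

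Stanniocalcin-2 (Stc2), a secreted glycoprotein induced by the integrated stress response, had the lowest p of the 18511 probe sets. Its intensities were 47.4, 37.1 and 28.2 in NIC CA1 (pools 1, 2 and 3) and 140, 94.4 and 134 in 8R CA1 (pools 1, 3 and 4). In CA3 they were 76.6, 70.3 and 68.4 in NIC and 90.7, 77.2, 67.9 and 79.1 in 8R (pools 1 to 4). The CA1 groups did not overlap, the CA3 groups did, and a transcript that was lower in CA1 than in CA3 in every NIC pool was higher in CA1 in every 8R pool. The change was 1.37 ± 0.14 log2 (SE) in CA1 and 0.11 ± 0.13 in CA3, a difference of 1.26 ± 0.15 (adjusted p = 0.000809). The gene lies at chr10:16755508-16765275 (GRCr8).

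Rgs2, which speeds the shut-off of Gq-coupled receptor signalling, lies at chr13:58350063-58352666. Its intensities were 183, 153 and 175 in NIC CA1 and 495, 402 and 456 in 8R CA1. In CA3 they were 189, 185 and 175 in NIC and 262, 247, 187 and 207 in 8R. The regions were alike in NIC, and every 8R CA1 array was above every 8R CA3 array. The change was 1.34 ± 0.12 in CA1 and 0.27 ± 0.11 in CA3 (adjusted p = 0.247 for the latter), and the difference was 1.07 ± 0.13 (adjusted p = 0.000809).

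Gadd45g, a stress sensor of the Gadd45 family that binds upstream kinases of the p38 and JNK pathways, lies at chr17:13528606-13530351. Its intensities were 20.4, 35.2 and 34.1 in NIC CA1 and 202, 152 and 161 in 8R CA1. In CA3 they were 31.1, 32.2 and 33.1 in NIC and 91.1, 71.4, 52.9 and 72.0 in 8R. The gene rose in both regions, without overlap of 8R and NIC in either, and the rise was larger in CA1 (2.04 ± 0.15 against 0.85 ± 0.14). The difference was 1.19 ± 0.17 (adjusted p = 0.00301). Of its relatives, Gadd45b differed by 0.61 ± 0.19 (adjusted p = 0.259) and Gadd45a by 0.42 ± 0.16 (adjusted p = 0.35), and neither passed the test.

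Cavin1, a coat protein of caveolae, lies at chr10:86384401-86398240. Its intensities were 27.5, 15.5 and 24.1 in NIC CA1 and 54.9, 63.7 and 76.3 in 8R CA1. In CA3 they were 26.9, 30 and 33.5 in NIC and 38.7, 35.6, 37.5 and 39.3 in 8R. Every 8R CA1 array was above the other groups, and the difference was 0.85 ± 0.15 (adjusted p = 0.0448). Caveolae are abundant in vessel walls. The summed intensity of 3 endothelial markers was from 77.3 to 82.9 in NIC CA1, 77.5 to 101 in 8R CA1, 55.6 to 63.5 in NIC CA3 and 65.1 to 94.4 in 8R CA3, and none of the 3 passed the test of 8R against NIC in either region. The part of vessel cells in the Cavin1 difference was not tested.

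Vgll3, a cofactor of TEAD transcription factors and a marker of CA3 in these lists, lies at chr11:17089484-17136501. Its intensities were 23.7, 24.6 and 17.8 in NIC CA1 and 28.7, 33.8 and 33.4 in 8R CA1. In CA3 they were 113, 123 and 102 in NIC and 73.7, 94.8, 73.0 and 47.5 in 8R. The 8R groups lay above NIC in CA1 and below it in CA3, although neither change passed the test alone (0.38 ± 0.16, adjusted p = 0.228, and -0.57 ± 0.15, adjusted p = 0.0734). The difference was 0.95 ± 0.17 (adjusted p = 0.0482).

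Polm, a DNA polymerase of the end-joining pathway, lies at chr14:84921039-84930649. Its intensities were 66.6, 52.1 and 56.9 in NIC CA1 and 37.4, 52.5 and 65.5 in 8R CA1. In CA3 they were 33.6, 26.8 and 27.9 in NIC and 59.9, 68.9, 77.2 and 68.9 in 8R. The NIC CA3 arrays were the lowest of the 4 groups, and the other 3 groups overlapped. Polm rose in CA3 (0.90 ± 0.13, adjusted p = 0.00108), the change in CA1 was -0.15 ± 0.14 (adjusted p = 0.687), and the difference was -1.05 ± 0.15 (adjusted p = 0.00392). In total RNA the NIC CA3 mean was 75.1 ± 3.0 (SD, n = 3), beside 74.3 ± 10.6 in NIC CA1 (n = 3), so the NIC CA3 arrays did not stand low there.

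**Figure D1:**
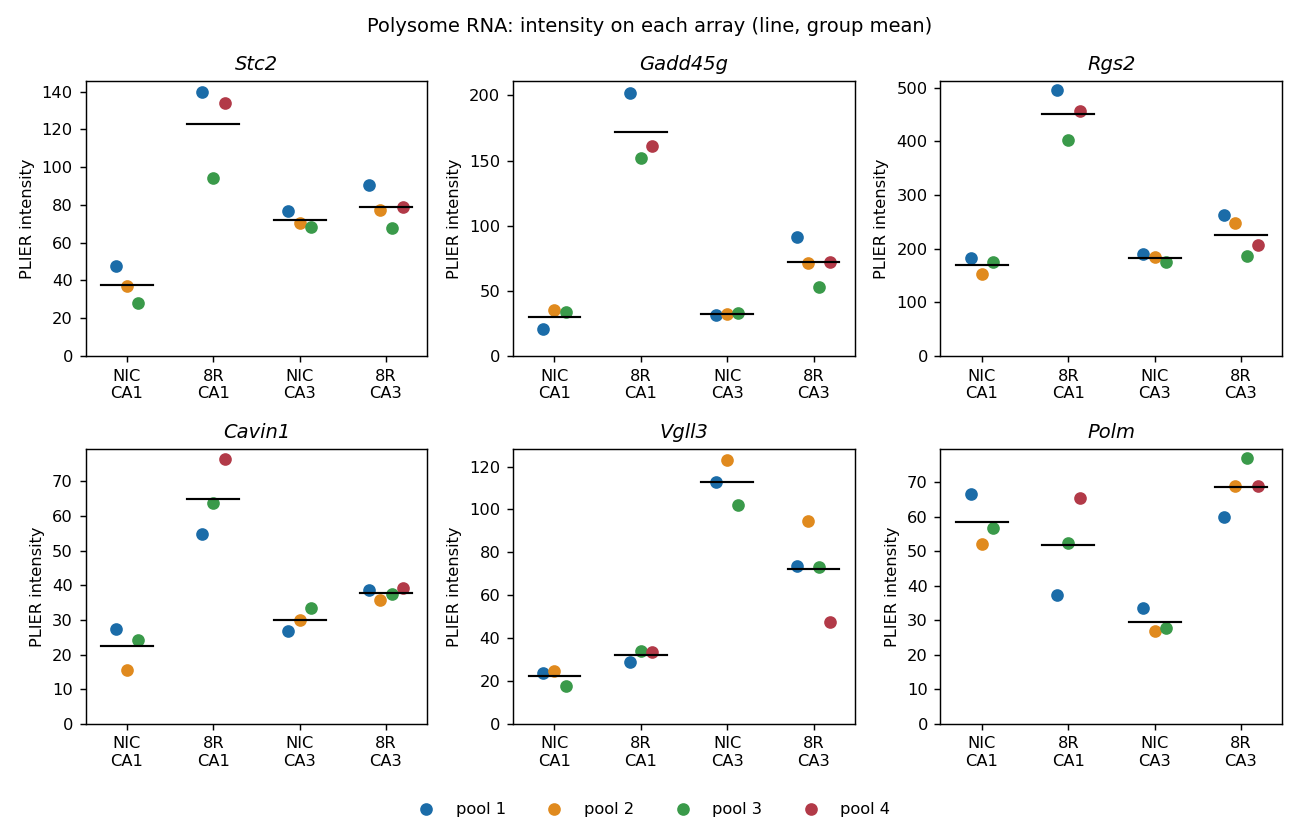
Intensity of 6 genes on each polysome array (PLIER units, linear axis from 0), by group, with a point per pool, coloured by pool number, and a line at the group mean. In the first 4 panels the 8R CA1 arrays stand above every other group, as for Stc2 (94.4 to 140 against at most 90.7), while for Polm the NIC CA3 arrays (26.8 to 33.6) stand below the rest.

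The other 3 probe sets with a lower response in CA1 were dim, and they are named after their values were seen, since their symbols fall outside the rule for named genes. Or5af1c and Or6f2 are annotated as olfactory receptor genes, and Mir296 as a microRNA gene. Or5af1c read 16.5, 6.60 and 16.2 in NIC CA1, 0.0349, 4.16 and 6.90 in 8R CA1, 0.0248, 0.00928 and 0.00353 in NIC CA3, and 6.04, 10.7, 10.7 and 16.5 in 8R CA3 (difference -1.30 ± 0.17, adjusted p = 0.00185). Or6f2 read 19.3, 18.3 and 18.6 in NIC CA1, 13.2, 15.1 and 17.3 in 8R CA1, 8.07, 3.75 and 5.96 in NIC CA3, and 20.5, 21, 16.9 and 16.1 in 8R CA3 (difference -0.80 ± 0.13, adjusted p = 0.0237). As with Polm, NIC CA3 polysome arrays were the lowest group for both. Values this close to 0 give a change that depends on the pseudocount.

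The Mir296 probe set does not separate the arms of the hairpin. It read 4.71, 5.81 and 6.99 in NIC CA1, 0.0111, 1.67 and 2.54 in 8R CA1, 0.00122, 0.00278 and 0.000623 in NIC CA3, and 5.07, 2.64, 4.99 and 7.45 in 8R CA3 (difference -0.74 ± 0.13, adjusted p = 0.0304). Its mature sequences (RefSeq, GRCr8, minus strand), at chr3:183470079-183470100 for the 3p arm and chr3:183470114-183470134 for the 5p arm, are shown with bases 2 to 8, the seed, in capitals, as the identity of this call.
rno-miR-296-3p: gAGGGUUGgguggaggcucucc
rno-miR-296-5p: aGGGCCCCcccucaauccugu
Neither RNA was measured as such on these arrays.

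Whether the 9 calls held depended on how pools were treated. The rule takes the pool number as a block over the regions. CA1 and CA3 arrays of the same 8R pool deviated together (correlations 0.408, 0.385 and 0.737 for pools 1, 3 and 4, although pool 3 correlated at 0.421 with another pool), and NIC pools did not (0.0847, -0.0108 and 0.00434). Without the block 0 probe sets were called by limma (lowest adjusted p = 0.082, 890 at an unadjusted p under 0.05), and with pool as a fixed term, which drops 8R CA3 pool 2, 39 were called, of which 6 were among the 9. Several genes below that did not pass the main test are given with their fixed-term result. Of these, Bag3, Ptgs2, Mt1, Jun, Cars1, Camta2 and Stmn2 passed in that 1 of 27 alternatives only. Eprs1, Nr4a3 and Rasgrf2 passed in 3 of 27, and Pnrc2, the most often of these, in 6. Stc2 and Rgs2 kept their call in 26 of 27 alternatives and lost it only without the block. Gadd45g, Polm and Or5af1c lost it there and without the 8R CA3 array of pool 4 (adjusted p = 0.0684 for Gadd45g, 0.0781 for Polm and 0.0684 for Or5af1c). Cavin1 lost it in 16 of 27, Vgll3 in 18 of 27, Or6f2 in 15 of 26 and Mir296 in 12 of 26, each also without pool 4 in both regions (adjusted p = 0.247, 0.192, 0.0754 and 0.209). No sign of the 9 turned. With 3 pools of each condition, the exact permutation test on a single probe set cannot go below 0.1, the value that all 9 had.

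At an unadjusted p under 0.05 there were 2036 probe sets (11%), 664 higher in CA1 (3.59%) and 1372 lower (7.41%). Within pools, the CA1 minus CA3 differences of 8R and NIC did not overlap for 3065 (16.6%), with 8R above for 1098 (5.93%) and below for 1967 (10.6%). The surplus of lower values was greatest among dim probe sets. Of the 6171 dimmest (mean intensity up to 29.3), 180 were higher and 639 lower at that threshold, against 244 and 466 of the next 6170 and 240 and 267 of the 6170 brightest (mean intensity from 83.2), and 3 of the 4 lower calls were in the dimmest group. The median difference was -0.077 in the dimmest and -0.032 in the brightest.

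The regional changes behind the difference share direction for many genes. In CA1, 680 probe sets were called for 8R against NIC (3.67%; 439 higher, 2.37%, and 241 lower, 1.3%), and in CA3, 132 (0.713%; 124 higher, 0.67%, and 8 lower, 0.0432%). Hspb1, the small heat shock protein with the largest change, rose by 4.03 in CA1 and 3.68 in CA3. Over all probe sets the CA1 and CA3 changes correlated at 0.574 (Pearson, across genes, which are not independent replicates, and with the pool 4 arrays in both). Being called in CA1 and not in CA3 is thus no test of a difference between regions, and the values below are for the difference itself. The split depended on scaling: 64.6% of the CA1 calls were higher as deposited and 55.1% after quantile normalization, 54.5% after median centring and 76.6% after linear scaling, and for CA3 93.9%, 79.6%, 77.3% and 81.5%.

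**Figure D2:**
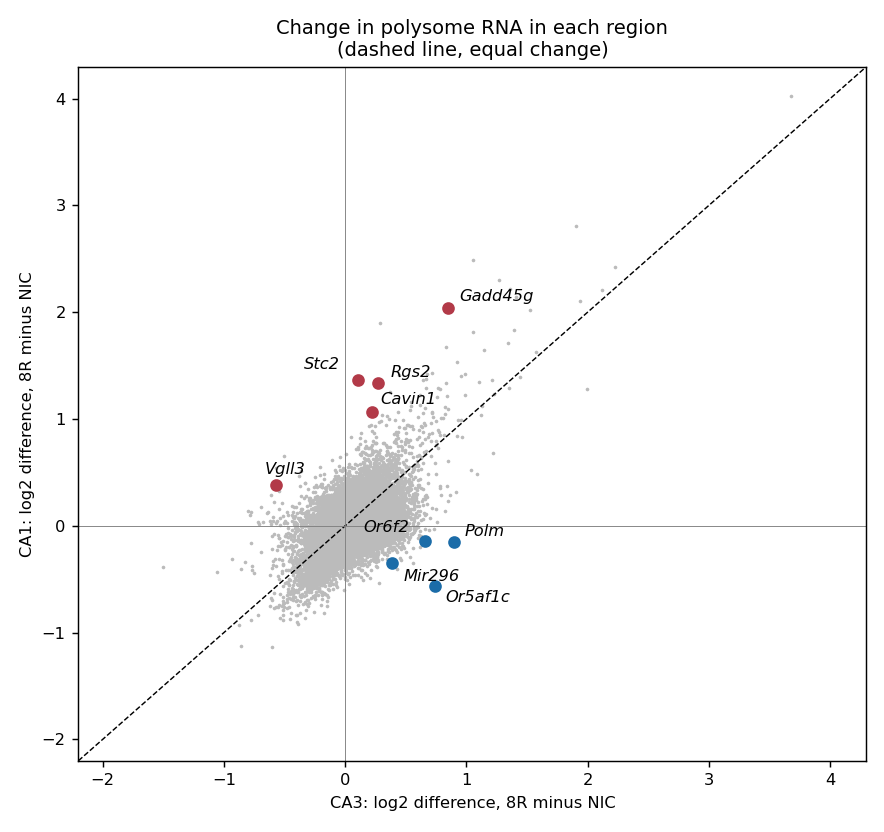
Change in polysome RNA (log2, 8R minus NIC) in CA3 on the horizontal axis and in CA1 on the vertical axis for 18511 probe sets in grey, with the 9 called for the difference named in red (larger in CA1) and blue (smaller in CA1), and a dashed line of equal change. Rgs2, Stc2 and Cavin1 sit above the line with CA3 changes from 0.11 to 0.27, and the called probe sets below the line have CA3 changes from 0.39 to 0.90.

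The next genes on the higher side did not pass the test. Npas4, an activity-dependent transcription factor of neurons, read 56.4, 46.2 and 67.5 in NIC CA1 and 266, 356 and 724 in 8R CA1, and in CA3 29.8, 29.9 and 25.6 in NIC and 81.7, 45.5, 57.2 and 150 in 8R. Its difference was the largest of the 10 genes named on this side, 1.43, but so was its spread (SE 0.30, adjusted p = 0.116), with pool 4 highest in both regions. Pnrc2, which couples decapping to mRNA decay, read 124, 132 and 118 in NIC CA1 and 315, 260 and 324 in 8R CA1, and in CA3 104, 115 and 110 in NIC and 190, 166, 147 and 169 in 8R. It rose in both regions (1.16 ± 0.11 and 0.54 ± 0.10), and the difference was 0.61 ± 0.12 (adjusted p = 0.0974).

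Vegfa, the vascular growth factor induced by hypoxia, read 66.0, 70.0 and 73.7 in NIC CA1 and 150, 141 and 178 in 8R CA1, and in CA3 61.3, 66.1 and 64.8 in NIC and 73.7, 87.7, 80.8 and 107 in 8R. The groups did not overlap in either region, and the difference was 0.64 ± 0.13 (adjusted p = 0.11). Fnip2, a partner of folliculin in nutrient signalling, read 134, 148 and 166 in NIC CA1 and 260, 266 and 377 in 8R CA1, against 142, 144 and 138 and then 160, 192, 146 and 172 in CA3 (difference 0.73 ± 0.14, adjusted p = 0.0974). Morc4, a nuclear ATPase, went from 20.9 ± 1.95 to 103 ± 29.3 in CA1 (SD, n = 3 and 3) and from 25.5 ± 2.24 to 59.3 ± 15.2 in CA3 (n = 3 and 4), a difference of 0.84 ± 0.17 (adjusted p = 0.11). With pool as a fixed term these 5 genes passed the test, with differences from 0.61 to 1.31.

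On the lower side, a pair of bright neuronal genes stood beside dim ones. Nr4a3, an orphan nuclear receptor, fell in both regions and more so in CA1. It read 490, 442 and 447 in NIC CA1 and 238, 239 and 232 in 8R CA1, and in CA3 411, 421 and 402 in NIC and 303, 331, 317 and 287 in 8R. The 8R CA1 arrays were below all others, and the difference was -0.51 ± 0.11 (adjusted p = 0.116). Rasgrf2, a Ras exchange factor activated by calcium and calmodulin, read 452, 432 and 404 in NIC CA1 and 221, 307 and 215 in 8R CA1, and in CA3 333, 365 and 337 in NIC and 266, 349, 349 and 283 in 8R. It fell in CA1 (-0.75 ± 0.12, adjusted p = 0.00133), was -0.15 ± 0.12 in CA3, and differed by -0.60 ± 0.14 (adjusted p = 0.131). With pool as a fixed term both passed the test (Nr4a3 -0.49, adjusted p = 0.0412, and Rasgrf2 -0.57, adjusted p = 0.0222).

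The remaining 7 named on this side, Bpifa5, Nphs1, Defb40, Wdr81, Hcst, RT1-Ba and Smgc, had mean intensities from 11.3 to 35.7 and differences from -0.82 to -0.62, none passing the test. Nphs1, which encodes the kidney slit protein nephrin, shows the shape they share: 50.9, 37.0 and 37.5 in NIC CA1, 24.4, 32.7 and 47.5 in 8R CA1, 20.9, 17.0 and 19.0 in NIC CA3 and 31.8, 37.0, 44.0 and 37.8 in 8R CA3. NIC CA3 had the lowest mean for each of the 7, from 4.84 for Smgc to 22.5 for Wdr81.

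Total RNA of the same regions gave the same sign for the genes with a higher response in CA1. All 10 named on that side were positive there, from 0.25 for Vegfa to 1.5 for Rgs2, and 2 passed the test (Rgs2, adjusted p = 5.04e-05, and Pnrc2, 0.0119). Of the 10 named on the lower side, 8 were negative in total RNA and 2 positive, from -0.63 for Rasgrf2 to 0.20 for Hcst, and 0 passed. Nr4a3 and Rasgrf2 had total RNA differences (-0.62 and -0.63) close to their polysome ones, while Polm had -0.073 ± 0.15 in total RNA against -1.05 ± 0.15 in polysome RNA. The total and polysome arrays share the pools.

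In total RNA 8 probe sets were called for the regional difference (0.0432%), all higher in CA1, and only Rgs2 was also among the 9 of polysome RNA. Hspd1, the mitochondrial chaperonin Hsp60, differed by 1.04 in total RNA and by 0.43 ± 0.15 in polysome RNA (adjusted p = 0.292). Its polysome intensities were 362, 264 and 284 in NIC CA1 and 603, 506 and 667 in 8R CA1, against 268, 276 and 297 and then 411, 434, 330 and 462 in CA3, and its second, dimmer probe set differed by 0.23 ± 0.17. Lox, a collagen cross-linking enzyme, differed by 2.46 in total RNA and 1.61 ± 0.41 in polysome RNA, where its 8R CA1 intensities were 84.2, 24.1 and 220. Timd2 was called in total RNA (1.42) and read from 3.98 to 13.4 on all polysome arrays (0.03 ± 0.16). Ankrd33b, Ociad2, Cdon and Pnrc2 had polysome differences of 0.79, 0.39, 0.55 and 0.61, and did not pass the test there, although Ankrd33b and Pnrc2 did with pool as a fixed term (adjusted p = 0.0478 and 0.0276).

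The difference between fractions was itself tested, as the polysome difference minus the total RNA difference, and 0 probe sets passed by limma (0%; lowest adjusted p = 0.175, 823 at an unadjusted p under 0.05). For Polm it was -0.98 ± 0.22 (adjusted p = 0.562), for Timd2 -1.39 ± 0.26 (0.175) and for Mir296 -0.93 ± 0.19 (0.21). No gene was thus shown to differ between polysome and total RNA in its regional response.

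**Figure D3:**
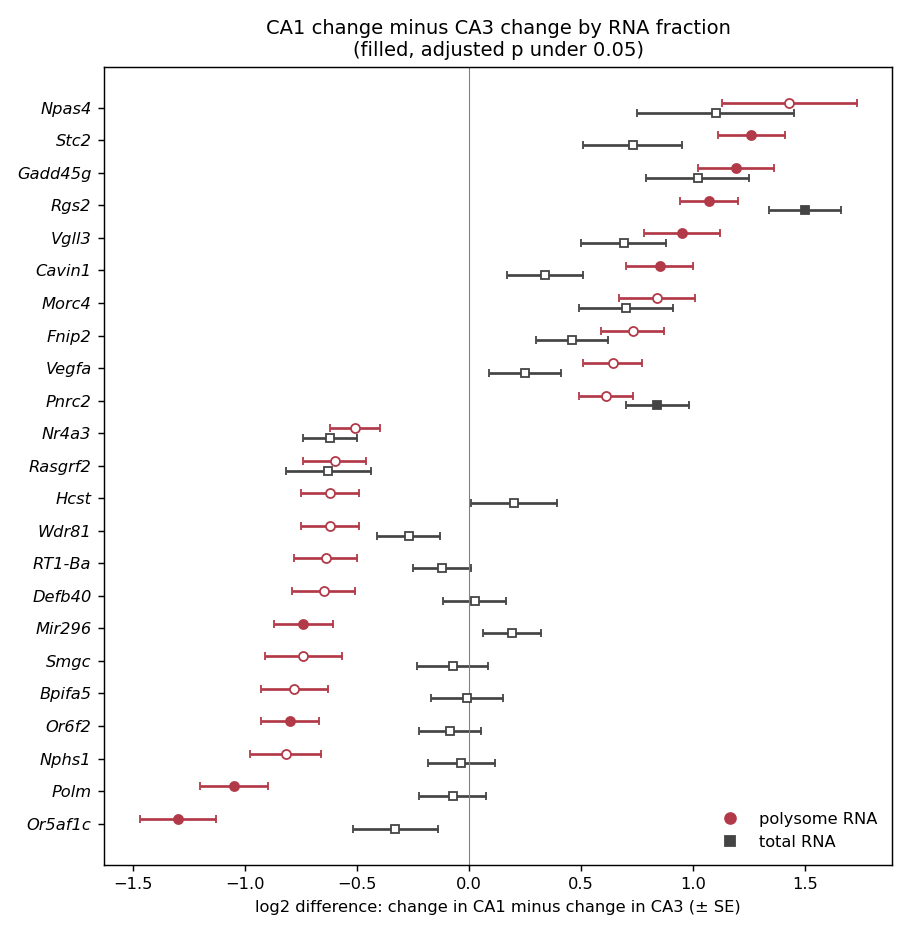
CA1 change minus CA3 change (log2, with SE) of the 10 genes named on each side and the 3 dim called probe sets, in polysome RNA (circles) and total RNA (squares), filled where the adjusted p was under 0.05. The genes on the positive side are positive in both fractions (0.25 to 1.5 in total RNA), while most of those on the negative side lie near 0 in total RNA, with Nr4a3 and Rasgrf2 the clearest exceptions.

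Gene lists were described by counts and medians, beside the median of -0.048 over all probe sets, of which 7360 were positive and 11151 negative. A count of negative members is thus read against a majority of negative values on the array. In total RNA the median over all probe sets was -0.023. There the list medians were 0.099 for the integrated stress response, 0.1 for synthetases, 0.22 for ribosomal proteins and 0.12 for activity-induced genes. They were -0.25 for calmodulin-dependent signalling, -0.23 for presynaptic and -0.17 for neurofilament genes. Values below are of polysome RNA, except where total RNA is named. Transcripts of the integrated stress response, whose factors are translated when eIF2α is phosphorylated, had a median difference of 0.27 over 27 probe sets, with 20 positive. Only Stc2 was called. At an unadjusted p under 0.05, 5 were higher and 3 lower. In CA1 13 of the 27 were called higher (against 2.37% of all) and in CA3 6 (against 0.67%), with medians of 0.51 and 0.29. Within pools, the list's median CA1 minus CA3 difference was 0.27, 0.18 and 0.30 in NIC and 0.42, 0.40 and 0.37 in 8R, without overlap, and without pool 4 in both regions the median difference was 0.18. The members did not all move one way: Atf3, a transcription factor of the pathway, read 34.8, 31.9 and 33.5 in NIC CA1, 112, 87.2 and 122 in 8R CA1, 17.3, 17.5 and 17.1 in NIC CA3 and 156, 101, 64.5 and 175 in 8R CA3. It rose in both regions, and its difference was -0.71 ± 0.23 (adjusted p = 0.275).

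Aminoacyl-tRNA synthetases, which charge tRNAs and include targets of ATF4, had a median difference of 0.18 over 19 probe sets, with 14 positive and 0 called. At an unadjusted p under 0.05, 7 were higher (36.8%) and 0 lower. The within-pool medians were 0.12, 0.081 and 0.093 in NIC and 0.28, 0.31 and 0.36 in 8R, without overlap. Eprs1, the glutamyl-prolyl enzyme, read 267, 231 and 241 in NIC CA1 and 750, 449 and 849 in 8R CA1, and in CA3 230, 237 and 209 in NIC and 369, 368, 279 and 446 in 8R. It rose in CA1 (1.37, adjusted p = 3.56e-05), was 0.65 in CA3 (adjusted p = 0.0526), and differed by 0.72 ± 0.18 (adjusted p = 0.158). Cars1, the cysteinyl enzyme, differed by 0.61 ± 0.17 (adjusted p = 0.211). With pool as a fixed term both enzymes passed the test (adjusted p = 0.00584 for Eprs1 and 0.0222 for Cars1). In CA1 6 of the 19 were called higher (against 2.37% of all), and in CA3 0 (against 0.67% of all). Without pool 4 in both regions the median difference was 0.11.

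Cytosolic ribosomal protein transcripts, most of them dependent on growth signalling for their loading, had a median difference of 0.17 over 86 probe sets. In total RNA it was 0.22. In polysome RNA 71 were positive and 0 called, with 12 higher and 1 lower at an unadjusted p under 0.05. The within-pool medians were 0.0054, 0.009 and 0.18 in NIC and 0.25, 0.26 and 0.17 in 8R, and these overlapped through NIC pool 3 and 8R pool 4. The largest differences of the list were Rps16 at -0.72, against the direction of the median, and Rpl13 at 0.51 and Rpl26 at 0.45. Rpl41, the shortest of these proteins, read 116, 87.5 and 72.8 in NIC CA1 and 186, 190 and 170 in 8R CA1, against 86.1, 100 and 94.4 and then 164, 156, 128 and 110 in CA3 (difference 0.42 ± 0.17, adjusted p = 0.371), and at a second, brighter probe set it differed by 0.23 ± 0.23. Signal from near-identical ribosomal protein pseudogenes may not be separated from that of the genes. Translation initiation and elongation factors had a median of 0.041 over 43 probe sets, and SR splicing factors 0.14 over 20, with 0 called in either.

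Activity-induced synaptic and signalling genes had a median difference of 0.24 over 26 probe sets. Of these 2 were called higher (Gadd45g and Rgs2), and at an unadjusted p under 0.05 10 were higher and 0 lower. The within-pool medians were 0.35, 0.27 and 0.37 in NIC and 0.56, 0.50 and 0.56 in 8R, without overlap. Ptgs2, the inducible cyclooxygenase, read 118, 132 and 115 in NIC CA1 and 595, 445 and 1110 in 8R CA1, and in CA3 49.2, 57.4 and 68.8 in NIC and 198, 151, 82.3 and 272 in 8R (difference 1.04 ± 0.28, adjusted p = 0.195, and 0.00672 with pool as a fixed term). Inhba, a subunit of activin, differed by 0.70 ± 0.19 (adjusted p = 0.173). Without pool 4 in both regions the median difference of the list was 0.19.

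Immediate early factors had a median of 0.051 over 26 probe sets, beside -0.048 over all probe sets, with 0 called. At an unadjusted p under 0.05, 4 were higher (15.4%, against 3.59% of all) and 5 lower (19.2%, against 7.41% of all). The factors went different ways: Npas4 (above) and Jun were on the higher side, and Nr4a3 and Fosl1 on the lower. Both Jun probe sets were positive (0.65 ± 0.21 and 0.57 ± 0.17, adjusted p = 0.292 and 0.236). The brighter, which passed with pool as a fixed term (adjusted p = 0.0385), read 339, 311 and 382 in NIC CA1 and 764, 489 and 913 in 8R CA1, against 452, 434 and 432 and then 593, 568, 486 and 743 in CA3. Fosl1 read from 10.2 to 17.2 in NIC CA3, below its other groups (23.9 to 45.8), and differed by -0.59 ± 0.15 (adjusted p = 0.173).

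Heat shock proteins had 26 probe sets, with medians of 0.31 in CA1 and 0.27 in CA3. Of these, 9 were called higher in CA1 (against 2.37% of all) and 8 in CA3 (against 0.67%). For the difference 0 were called, and its median was 0.083, or 0.025 without pool 4 in both regions. Hspb1 read 15, 18.6 and 18.7 in NIC CA1, 560, 335 and 840 in 8R CA1, 10.0, 13.8 and 11.7 in NIC CA3 and 359, 285, 185 and 696 in 8R CA3 (difference 0.35 ± 0.30, adjusted p = 0.696). Bag3, a co-chaperone of Hsp70 and of small heat shock proteins, differed most: 114, 117 and 129 in NIC CA1 and 630, 385 and 996 in 8R CA1, against 111, 125 and 121 and then 363, 296, 230 and 483 in CA3 (difference 0.85 ± 0.23, adjusted p = 0.189). Its within-pool differences were 0.033, -0.089 and 0.084 in NIC and 0.77, 0.71 and 1.02 in 8R. With pool as a fixed term it passed the test (0.82 ± 0.11, adjusted p = 0.00247), the only 1 of 27 alternatives in which it did. Mt1, a metallothionein, differed by 0.90 ± 0.30 at its brighter probe set (adjusted p = 0.292, and 0.0377 with pool as a fixed term), and 0 of 28 metallothionein and antioxidant probe sets were called.

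**Figure D4:**
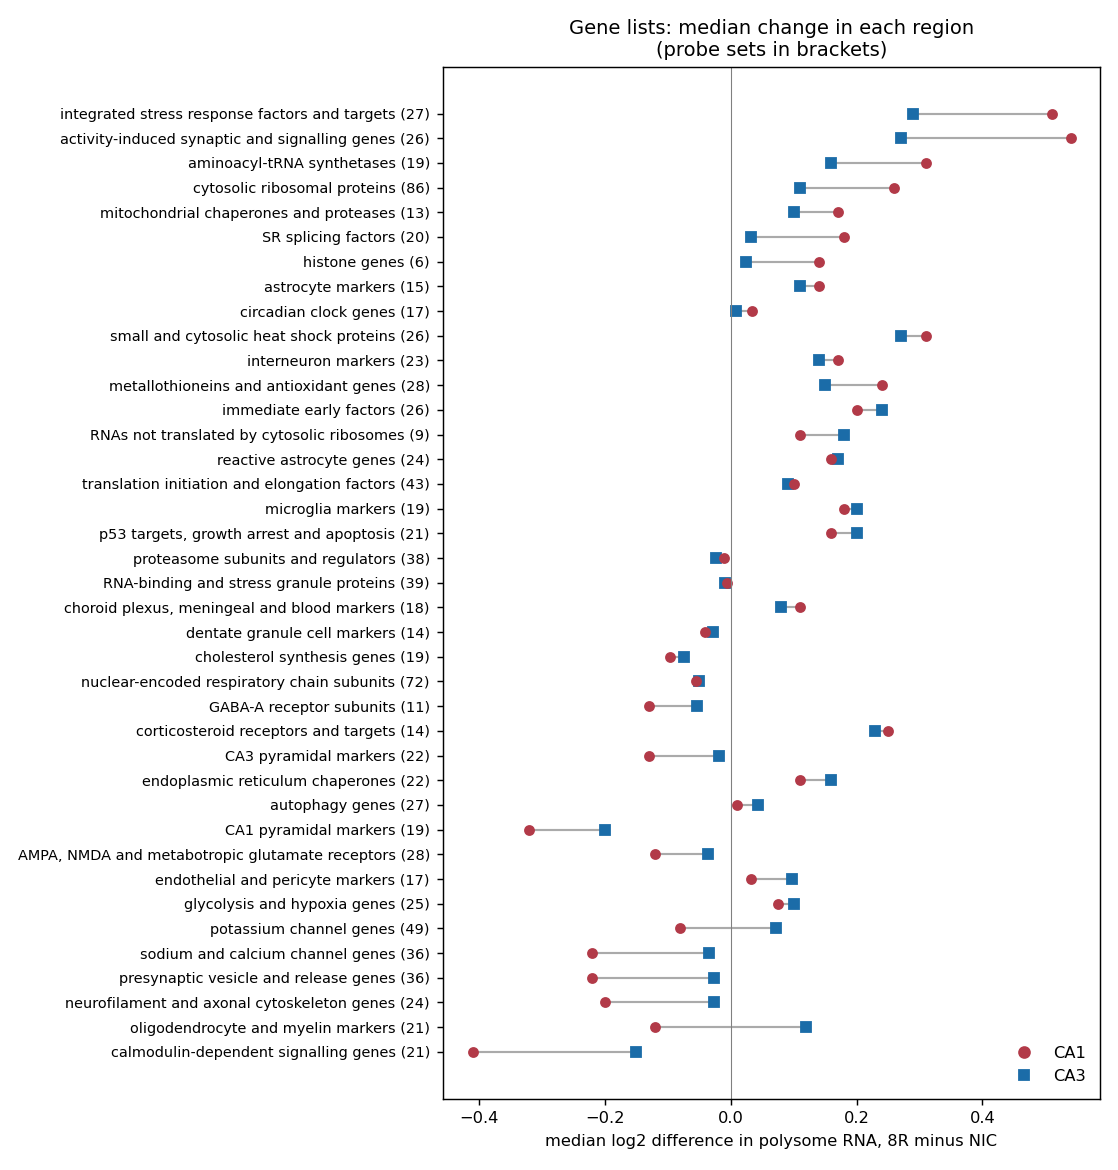
Median change in polysome RNA (log2, 8R minus NIC) of 39 gene lists in CA1 (circles) and CA3 (squares), ordered by the median of the difference, with the number of probe sets in brackets. The CA1 median is above the CA3 median for the integrated stress response (0.51 and 0.29) and below it for presynaptic genes (-0.22 and -0.027), while for immediate early factors (0.2 and 0.24) and endoplasmic reticulum chaperones (0.11 and 0.16) the CA3 median is the higher.

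Calmodulin-dependent signalling genes, the kinases, phosphatases and their partners that read synaptic calcium, had the lowest median difference, -0.28 over 21 probe sets, with 18 negative, 0 called and 7 lower at an unadjusted p under 0.05. In CA1 7 were called lower (against 1.3% of all) and in CA3 0 (against 0.0432%), with medians of -0.41 and -0.15. Within pools, the list's median was 0.34, 0.41 and 0.33 in NIC and -0.0064, 0.19 and 0.098 in 8R, without overlap. Camta2, a calmodulin-binding transcription activator, read 1020, 905 and 888 in NIC CA1 and 458, 750 and 472 in 8R CA1, and in CA3 680, 647 and 627 in NIC and 489, 651, 685 and 472 in 8R (difference -0.54 ± 0.16, adjusted p = 0.233, and 0.0222 with pool as a fixed term).

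Presynaptic vesicle and release genes had a median difference of -0.20 over 36 probe sets. Of these 33 were negative and 0 called, 11 were lower and 0 higher at an unadjusted p under 0.05 (30.6% lower, against 7.41% of all), and the within-pool differences were non-overlapping with 8R below for 18, against 10.6% of all. The within-pool medians were 0.27, 0.14 and 0.14 in NIC and -0.033, -0.059 and -0.009 in 8R, beside 0.23, 0.19 and 0.22 and 0.16, 0.13 and 0.19 over all probe sets. In CA1 7 were called lower (against 1.3% of all), and in CA3 0 (against 0.0432% of all). Cplx2, a complexin that clamps vesicle fusion, read 963, 902 and 992 in NIC CA1 and 596, 754 and 617 in 8R CA1, and in CA3 873, 853 and 905 in NIC and 682, 854, 900 and 710 in 8R (difference -0.35 ± 0.12, adjusted p = 0.292). Prrt2, a regulator of release, differed by -0.44 ± 0.15 (adjusted p = 0.31).

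Neurofilament and axonal cytoskeleton genes had a median difference of -0.20 over 24 probe sets, with 20 negative, 0 called and 8 lower at an unadjusted p under 0.05. The within-pool medians were 0.097, 0.12 and 0.15 in NIC and -0.009, -0.16 and 0.017 in 8R. Stmn2, a microtubule regulator of growing axons, read 1430, 1390 and 1350 in NIC CA1 and 903, 1080 and 680 in 8R CA1, and in CA3 1260, 1270 and 1260 in NIC and 1130, 1250, 1250 and 901 in 8R. The CA1 groups did not overlap, the 8R CA3 arrays were all below NIC, and the difference was -0.48 ± 0.14 (adjusted p = 0.23, and 0.0286 with pool as a fixed term). Nefl, the light neurofilament, differed by -0.38 ± 0.13 (adjusted p = 0.31). Sodium and calcium channel genes had a median of -0.16 over 36 probe sets and potassium channel genes -0.12 over 49, with 0 called in either. Within pools these medians of 8R and NIC overlapped for both lists. They were 0.36 to 0.52 in NIC and 0.26 to 0.42 in 8R for sodium and calcium channels. For potassium channels they were 0.21 to 0.34 in NIC and 0.18 to 0.34 in 8R. At an unadjusted p under 0.05, 2 sodium and calcium channel probe sets were lower (5.56%, against 7.41% of all) and 0 higher. Of the potassium channel probe sets 6 were higher (12.2%, against 3.59% of all) and 4 lower (8.16%).

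Markers of other cell types were measured beside these lists. Oligodendrocyte and myelin markers had a median difference of -0.21 over 21 probe sets, with 18 negative, 0 called and 7 lower at an unadjusted p under 0.05. The within-pool medians were 0.97, 0.51 and 0.54 in NIC and 0.66, 0.34 and 0.55 in 8R, and these overlapped. The summed intensity of 8 oligodendrocyte probe sets was from 2400 to 2980 in NIC CA1, 2220 to 2720 in 8R CA1, 1300 to 1650 in NIC CA3 and 1610 to 1780 in 8R CA3. The sum of 8 microglial markers was 379 to 398 in NIC CA1, 511 to 656 in 8R CA1, 332 to 343 in NIC CA3 and 403 to 530 in 8R CA3. Of these 3 were called higher in CA1 (against 2.37% of all) and 1 in CA3 (against 0.67%), and 0 for the difference. The sum of 6 astrocyte markers was 4180 to 4280 in NIC CA1, 4110 to 4940 in 8R CA1, 3500 to 3530 in NIC CA3 and 3450 to 4240 in 8R CA3. Their part in the neuronal list medians was not tested.

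Markers of the pyramidal cells were also measured. CA1 pyramidal markers had a median difference of -0.083 over 19 probe sets and CA3 pyramidal markers -0.043 over 22, of which only Vgll3 was called. Without pool 4 in both regions the CA3 marker median was -0.14, beside -0.068 over all probe sets. Neurod6, a transcription factor of pyramidal neurons, fell in CA1 (-0.87, adjusted p = 0.00511), was -0.33 in CA3, and differed by -0.54 ± 0.18 (adjusted p = 0.297). Cpne4, a calcium-dependent membrane-binding protein on the CA3 list, was not called between the regions in NIC. Its CA1 minus CA3 difference there was 0.19 (adjusted p = 0.151), beside a median of 0.21 over all probe sets. It read 715, 735 and 686 in NIC CA1 and 426, 448 and 389 in 8R CA1, and in CA3 593, 629 and 648 in NIC and 511, 684, 646 and 435 in 8R. Its 8R CA1 arrays were all below NIC CA1, its CA3 groups overlapped, and the difference was -0.55 ± 0.14 (adjusted p = 0.173). Clock genes had a median of 0.091 over 17, with 4 higher and 0 lower at an unadjusted p under 0.05 and 0 called, among them Per2 (0.56 ± 0.16, adjusted p = 0.214) and Cry1 (0.52 ± 0.16, adjusted p = 0.24), both parts of the negative limb of the clock.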

How the data were processed

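Polysome and total RNA of pooled rat CA1 and CA3 were measured on 27 arrays. The deposited values are intensities, 1 per probe set and array, made with PLIER and Affymetrix Expression Console per the submitters' processing notes, with no version named. The sources used here do not say how arrays were scaled to each other. The number of arrays limits the precision, and nothing says that pools were prepared independently, so p-values measure the spread between these arrays.

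From these, log2(intensity + 16) was computed, which understates changes of dim probe sets. No filter was used. The 13 polysome arrays were fitted in R 4.3.3 with limma 3.58.1 (lmFit, eBayes with an intensity trend), with 4 group means and pool number within condition as a random block over regions (correlation 0.393). That block is set by the comparison's definition. The numbers come from the sample descriptions, which do not say that CA1 and CA3 pools came from the same rats, and the correlations in the report were above 0.1 for same-numbered 8R pools, although 8R pool 3 correlated more with another pool, and below it for NIC pools. Contrasts were the difference of differences, 8R against NIC in each region, and the same for 14 total RNA arrays. The polysome minus total difference was fitted on all 27. Tests were two-sided with Benjamini-Hochberg adjustment over 18511 probe sets, and an adjusted p under 0.05 is a call. Of the 18511 probe sets, for 18166 genes, 18394 matched a gene record, 575 further probe sets had several symbols and 17599 none.

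Named genes were, for each direction, called probe sets (up to 15) whose symbol is not an olfactory receptor, microRNA or locus name, filled to 10 by p with those not overlapping within pools, and up to 4 members per gene list with the largest differences. The members and the 39 lists were chosen with earlier results of these data known. The fit was tested on simulated data that built in a correlation within the pools of both conditions. That test cannot show whether the block suits the NIC pools. Alternatives covered the block, pseudocount, dim filter, scaling, weights, variance trend and left-out arrays. Scaling arrays linearly to a common median, a block for 8R pools only, and the alternatives for CA1 against CA3 within a condition were added after seeing the data.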

Additional observations from a re-analysis of the deposited data

Results flagged for a closer look

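These results are listed for their test of the difference between regions. In polysome RNA they were Stc2 (1.26), Gadd45g (1.19), Rgs2 (1.07), Vgll3 (0.95), Cavin1 (0.85), Polm (-1.05), Or5af1c (-1.30), Or6f2 (-0.80) and Mir296 (-0.74), in log2. In total RNA they were Lox (2.46), Rgs2 (1.5), Timd2 (1.42), Hspd1 (1.04), Cdon (0.91), Ociad2 (0.86), Pnrc2 (0.84) and Ankrd33b (0.78).

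In the group of 4 arrays, 8R CA3 polysome RNA, 174 probe sets of the named genes and list members were checked for an array far from the others, and 14 had one. Chance gives about 1 in 20 groups. Pool 4 was that array for 8 of the 14. It was highest for Lox (22.0), Mt2A (682) and Hba-a1 (182), and lowest for Kcnv1 (27.7), Gap43 (126), Tia1 (39.9), Ndufs4 (324) and Ddit4 (151). Pool 3 was lowest for Hspa9 (789) and Cd68 (16.6) and highest for Meg3 (60.7). Pool 2 was lowest for Hcst (20.1) and Timd2 (3.99), and pool 1 for Cacna1i (104).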

How the results depend on the processing

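The count of 9 calls for the regional difference in polysome RNA became 0 with no replicate block, 39 with a fixed replicate block, 5 with the block for 8R pools only, 16 after median centring and 38 with array quality weights, and leaving out 1 array gave from 2 to 25 calls (2 without the 8R CA3 array of pool 4, 25 without the 8R CA1 array of pool 3, 5 without NIC CA1 pool 3 or 8R CA3 pool 1 or 3). It was between 6 and 13 in the other alternatives, 13 with the dimmest probe sets left out, where only 6 of the 9 were tested. Without 8R pool 4 in both regions there were 6, of which 5 were among the 9. For 8R against NIC, CA3 had 248 calls without pool 4, against 132. After linear scaling CA1 had 206 higher and 63 lower, against 439 and 241, and CA3 had 44 and 10, against 124 and 8. After median centring CA3 had 51 and 15. Counts of CA1 against CA3 were 6758 in NIC and 4497 in 8R as deposited, with no replicate block 2744 and 2229, after quantile normalization 1165 and 1586, after median centring 1245 and 1482, after linear scaling 472 higher and 482 lower in NIC and 558 and 350 in 8R, and without pool 4 2767 in 8R. In total RNA 8 became 2 with no replicate block and 13 without pool 4. The cause of these changes was not tested. Timd2, at 0.03, was between -0.07 and 0.14 with 1 array left out and turned to between -0.07 and -0.01 in 7 alternatives (-0.05 with array weights and without pool 4, -0.04 without NIC CA3 pool 3, -0.07 without NIC CA1 pool 3 and without 8R CA1 pool 4, -0.01 with the fixed block and without 8R CA3 pool 2), and Gja1 to 0 without pool 4. Medians of the stress, synthetase, ribosomal, activity, presynaptic, calmodulin, neurofilament and channel lists kept their sign in 27 alternatives. Their size was less stable: the stress and synthetase medians moved by more than their spread between pools in 11 of 27, and the activity median in 9. Other medians changed sign, among them immediate early factors (-0.017 to 0.13), CA1 pyramidal markers (-0.19 to 0.026) and CA3 pyramidal markers (-0.14 to 0.046).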
